A study of Mus musculus with 4 samples.

Results

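KRAB zinc finger proteins (KRAB-ZFPs) are DNA-binding repressors, and the 48 genes described here are the ones with a listed mm9 location that lie outside Chr4-cl, the cluster on chromosome 4. They were taken from the study's table of 68 KRAB-ZFP genes by cluster name, with no measured value used. By cluster, 19 belong to Chr2-cl, 14 to Chr13.2-cl, 4 to Chr8-cl, 3 to Chr9-cl, 2 to Chr13.1-cl and 1 to Chr10-cl, and 5 genes (AW146154, Zfp46, Zfp661, Zfp94 and Zkscan17) are listed without a cluster. The table gives 29 of them as found in Mus, 15 as shared by Muroidea and 4 (Zfp46, Zfp661, Zfp94 and Zkscan17) as shared by mammals. All annotated mm9 genes, with the table's genes at their listed location, numbered 37310.

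CpG methylation was measured by RRBS-seq (reduced representation bisulfite sequencing), in which DNA is cut with MspI at CCGG and bisulfite turns unmethylated cytosines into thymines when read. There were 4 samples of mouse ES cells with 1 library each. Cells of either genotype, WT or Chr4-cl KO, were grown in serum medium (20% FCS) or kept for 1 week in 2i + Vitamin C, a medium in which methylation falls across the genome. KO cells lack Chr4-cl after CRISPR/Cas9 cutting with a pair of guide RNAs. WT and KO cells came from picked clones of ES cells of B6;129 background with a ROSA26 cre/ERT allele, which they therefore share, and how many clones a library holds was not given in the sources used here. With 1 library per condition, no difference has a replicate check, and each test compares libraries, not conditions.

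The sums of read counts over CpG sites ranged from 42684672 (KO in 2i + Vitamin C) to 90649194 (WT in 2i + Vitamin C), and sites read at least 10 times had median depths of 25 to 50 reads in the same samples. Over 19 Chr4-cl genes, 23094 and 29999 reads were counted in the WT samples and 508 and 298 in the KO samples in serum and 2i + Vitamin C, so the deletion was seen in the libraries that carry its label. ES cells were checked only through methylation, which is not expression. Of 9 listed ES cell genes found in the annotation, 5 could be tested for KO against WT in serum, and their median 5′ methylation was 1.4% in WT and 2.14% in KO cells. Esrrb was the exception, with 66.6% in serum and 17% in 2i + Vitamin C in WT cells.

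KRAB-ZFPs carry a KRAB domain near the N terminus, which recruits the corepressor KAP1 (Trim28), and an array of C2H2 zinc fingers, which binds DNA and is usually encoded by the last exon. KAP1 brings the histone methyltransferase SETDB1, and many KRAB-ZFPs silence retrotransposons in early embryos and ES cells. The genes themselves sit in clusters that grew by repeated duplication, so that neighbours are close copies of each other. As a check of the label, the linker that joins neighbouring fingers was searched by its conserved codons on the gene's strand alone. A chain of at least 3 linkers, each within 300 bp of the last, was present in 34 of the 48 genes and in 1.11% of 22314 other coding genes, which include other zinc finger genes. The longest chain was in Zfp808, with 18 linkers, and Gm14295, Gm14399, Gm14419, Gm14436 and Zkscan17 had no linker within the listed location.

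The sequences below carry the contrasts described in the rest of the text. They were read from mm9 on the gene's strand, and capitals mark each CG with at least 10 reads in a sample. The first pair comes from Zfp872, the only gene over 10% among the 15 whose 5′ region was measured in all 4 samples. The next comes from the finger array of Zfp46, which had low methylation, and those after it from coding exons of Zfp661 and Zkscan17, which were methylated in serum.
Zfp872 at chr9:21992545-21992605, + strand, just before the 5′ end: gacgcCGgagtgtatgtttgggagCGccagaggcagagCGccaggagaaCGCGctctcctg
Zfp872 at chr9:21992840-21993002, + strand, just after the 5′ end: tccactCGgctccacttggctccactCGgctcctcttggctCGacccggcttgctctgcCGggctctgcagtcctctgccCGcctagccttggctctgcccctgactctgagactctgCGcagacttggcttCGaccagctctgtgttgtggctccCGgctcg
Zfp46 at chr4:135846576-135846756, + strand, finger array: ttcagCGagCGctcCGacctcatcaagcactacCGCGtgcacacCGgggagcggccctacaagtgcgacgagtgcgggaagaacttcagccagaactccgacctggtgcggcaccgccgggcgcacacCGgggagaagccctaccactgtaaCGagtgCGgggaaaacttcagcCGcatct
Zfp661 at chr2:127403113-127403303, - strand, last coding exon: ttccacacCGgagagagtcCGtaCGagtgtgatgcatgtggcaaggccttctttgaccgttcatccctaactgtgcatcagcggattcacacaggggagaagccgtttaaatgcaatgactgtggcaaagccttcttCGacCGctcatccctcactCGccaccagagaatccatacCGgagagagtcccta
Zkscan17 at chr11:59300877-59301067, - strand, last coding exon: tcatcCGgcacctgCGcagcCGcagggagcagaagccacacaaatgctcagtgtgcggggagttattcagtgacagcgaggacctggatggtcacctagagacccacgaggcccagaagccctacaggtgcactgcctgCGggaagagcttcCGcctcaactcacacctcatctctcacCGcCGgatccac
Zkscan17 at chr11:59317040-59317080, - strand, an earlier coding exon: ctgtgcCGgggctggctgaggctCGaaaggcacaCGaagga

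A CpG site was counted as covered with at least 10 reads in a sample, within the listed location extended by 1 kb. Covered sites were sorted into a 5′ region, within 1 kb of the listed 5′ end, and the rest of the gene. Of the 48 genes, 30 had a covered site in at least 1 sample and 18 had none. A covered 5′ site was present in 28 genes and a covered site in the rest of the gene in 10. In all, 408 sites were covered in at least 1 sample and 183 in all 4 samples. At least 3 sites covered in all 4 samples were present in 15 of 48 5′ regions (31.2%), against 40.2% of the 5′ regions of 241 other KRAB-ZFP genes named in the study's expression table, 50.8% of those of protein-coding genes and 35.4% of those of all annotated genes. By conservation, the 15 genes were 5 of the 29 Mus genes, 7 of the 15 Muroidea genes and 3 of the 4 mammalian genes.

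The genes without a covered site were 11 of 19 in Chr2-cl and 7 of 14 in Chr13.2-cl. In the other clusters, and among the 5 genes without a cluster, every gene had a covered site in at least 1 sample. The 11 Chr2-cl genes were Gm14326, Gm14391, Gm14393, Gm14401, Gm14406, Gm14410, Gm14412, Gm14419, Gm14436, Gm4631 and Gm8898. The 7 Chr13.2-cl genes were Zfp429, Zfp456, Zfp457, Zfp58, Zfp595, Zfp738 and Zfp759. Values below therefore describe mostly the smaller clusters and the genes without a cluster, and only part of Chr2-cl and Chr13.2-cl.

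Sequence moved with this coverage. The 5′ regions of the 48 genes held a median of 32 CpG sites and a median observed over expected CpG ratio of 0.323, against 61 sites and 0.468 for protein-coding genes and 32 sites and 0.296 for all annotated genes. The medians were lowest in Chr2-cl, with 25 sites and a ratio of 0.23, and highest in Chr9-cl for sites (72) and in the genes without a cluster for the ratio (0.557). The Chr2-cl genes had a median of 5 CCGG per 5′ region, as did all 48 genes, and 93.8% of the 48 genes held a CCGG there against 86.9% of protein-coding genes. Each CCGG gives a possible read start on either strand. After C-to-T conversion in silico, the 45 bases from the read start occurred once in mm9 at 20 of 136 read starts (14.7%) in Chr2-cl, and at 94.9% in Chr13.2-cl, 96.9% in Chr8-cl and 100% in the genes without a cluster. In the 28 genes with a covered 5′ site 81.2% of the read starts were unique, and in the 20 without one 34%. Of the 14 Chr13.2-cl genes, which had mostly unique read starts but a median of 2 CCGG, 6 had a covered 5′ site. Of the 408 covered sites 342 lie in unique windows, and none of the 6 covered sites of Gm6710 in Chr2-cl does. Over all covered 5′ sites in WT serum, the mean was 6.69% at unique and 12.7% at repeated windows. The 35 repeated sites include 4 upstream sites of Zfp872 with a mean of 87.5%, and the 6 of Gm6710 had 2.02%. Zfp872 has sites in both means, and neither was computed without it. The part of sequence in the coverage was not tested.

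**Figure D1:**
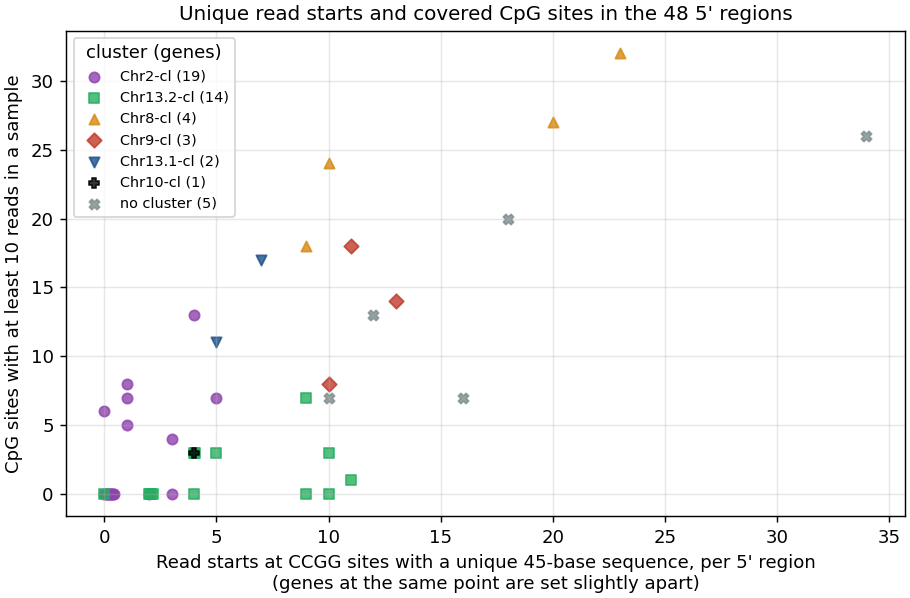
Each point is one of the 48 genes. The horizontal axis counts read starts at CCGG sites in the 5′ region whose 45-base sequence is unique in mm9 after C-to-T conversion, the vertical axis counts 5′ CpG sites with at least 10 reads in at least 1 sample, and colours and symbols mark the cluster. Genes with equal values are set slightly apart to the right. Chr2-cl genes have 5 unique read starts or fewer, and 12 of the 48 genes have none.

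At the 5′ end, the genes measured in all 4 samples were almost free of CpG methylation in each of them, with 1 exception. Among the 15 genes with at least 3 sites covered in all 4 samples, 14 had a mean under 10% in each of the 4 samples (93.3%). Over all genes of the annotation the same held for 88.5%, 85.9%, 93.8% and 94.4% of genes in WT serum, KO serum, WT 2i + Vitamin C and KO 2i + Vitamin C. The median gene had 1.56%, 2.28%, 1.98% and 1.04% in that order, against 1.44%, 2.43%, 2.07% and 1.18% over all genes. The exception was Zfp872 of Chr9-cl.

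The 3 lowest 5′ means in WT serum belonged to Gm14295, EtOHi1 and Zfp961. Gm14295, a Chr2-cl gene, had 0% in WT cells in either medium, 2.88% in KO serum and 0.794% in KO 2i + Vitamin C. Its 0 methylated of 77 counts in WT cells were summed over 7 sites with 11 reads at each. Taken as independent, the 77 counts allow up to 3.9%, but the same reads can cover several of these sites, so the limit may be higher. Only 2 of these 7 sites lie in unique windows. EtOHi1, also of Chr2-cl, had 0.575% in WT serum, 1.07% in KO serum, 1.93% in WT 2i + Vitamin C and 1.67% in KO 2i + Vitamin C. Zfp961 of Chr8-cl had 0.723%, 1.17%, 1.6% and 1.87%. The counting intervals of these genes overlapped: the 95% Wilson interval of the pooled reads in WT serum was 0 to 4.75% for Gm14295 and 0.219 to 2.86% for Zfp961. Such intervals cover counting error only, since PCR reads without molecular identifiers are not independent molecules. Here and below, read counts of a region were summed over its sites, and a read over several sites counts at each. Intervals, limits and counting errors from such sums are therefore too narrow.

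At the same sites, covered in all 4 samples, the 3 highest 5′ means in WT serum belonged to Zfp872, Zfp599 and Zfp661. The order depends on the sites. At those covered in both WT samples, Zfp709 (3.98%) and Zkscan17 (3.46%) were above Zfp661 (3.05%) and Zfp599 (2.21%) in WT serum. Zfp599, a neighbour of Zfp872 in Chr9-cl, had 2.53% in WT serum, 2.28% in KO serum, 0.529% in WT 2i + Vitamin C and 0% in KO 2i + Vitamin C. In that last sample, 0 of 191 counts summed over 7 sites with 27 to 29 reads each allow up to 1.57% if taken as independent. Zfp661 had 2.42%, 5.54%, 3.58% and 1.04%, and was also among the 3 highest in WT 2i + Vitamin C, with Zfp872 and Zfp808 (2.38%). After Zfp872, neighbours in the order of 5′ means lay within 1 percentage point of each other in WT serum.

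**Figure D2:**
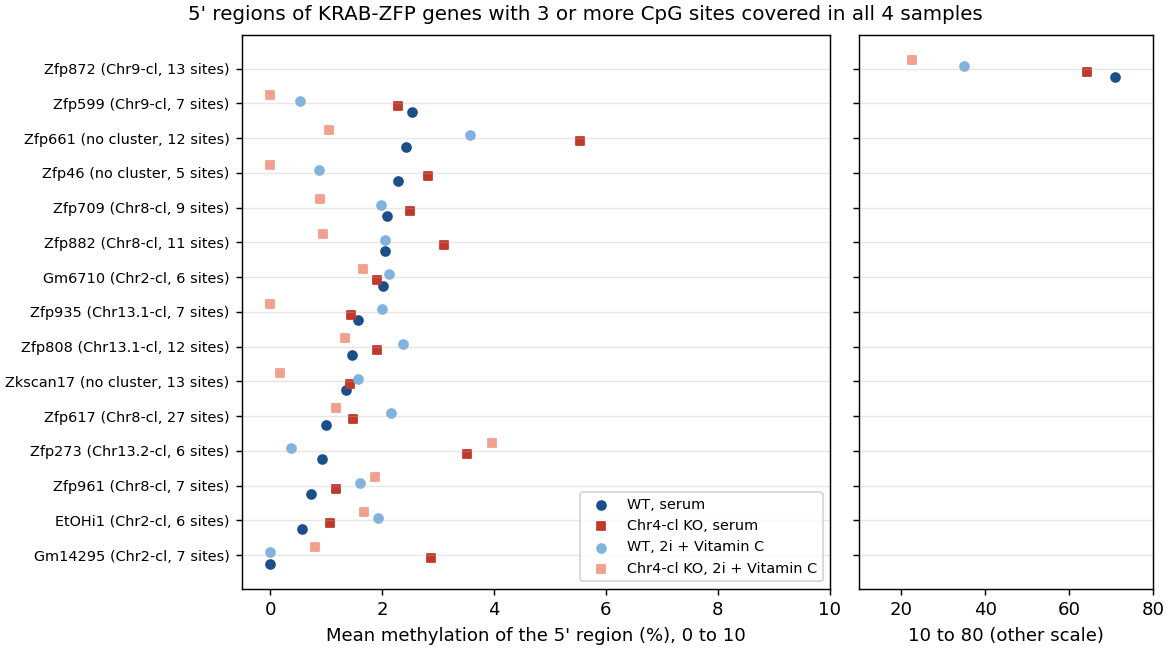
Each row is one of the 15 genes with at least 3 CpG sites covered in all 4 samples, ordered by WT serum. Markers give the mean methylation of its 5′ region in percent, in blue for WT and red for Chr4-cl KO, dark for serum and light for 2i + Vitamin C, and the right panel continues the axis on another scale. In 14 rows all 4 markers lie under 10%, and Zfp872 runs from 22.6% to 71%.

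By cluster, the 5′ sites covered in all 4 samples gave like levels everywhere but in Chr9-cl. The 54 sites of 4 Chr8-cl genes had a mean of 1.36% in WT serum, 1.94% in KO serum, 2.03% in WT 2i + Vitamin C and 1.17% in KO 2i + Vitamin C. The 19 sites of 3 Chr2-cl genes had 0.819%, 2%, 1.28% and 1.34%, and the 19 sites of the 2 Chr13.1-cl genes had 1.5%, 1.73%, 2.23% and 0.841%. Within the Chr2-cl mean, only 2 of 7 sites of Gm14295 and none of the 6 of Gm6710 lie in unique windows. In Chr13.2-cl only Zfp273 was covered in all 4 samples, with 0.926%, 3.51%, 0.379% and 3.96% at 6 sites. Most of the genes covered in fewer samples were low as well. Zfp810, the other Chr9-cl gene, had 0.769% in KO serum and 1.19% in WT 2i + Vitamin C, and Zfp938 of Chr10-cl had 0% at 3 sites in WT 2i + Vitamin C, its only covered sample. Zfp874a of Chr13.2-cl differed: its 2 sites covered in WT serum had 60% and 50% at 10 reads each, and 12.5% at 16 reads each in WT 2i + Vitamin C. Those sites lie 249 and 408 bp before the 5′ end and had under 10 reads in the KO samples.

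In Chr8-cl all 4 genes were covered. Zfp617 (chr8:74446724-74458529, + strand) had 0.999% in WT serum, 1.49% in KO serum, 2.15% in WT 2i + Vitamin C and 1.17% in KO 2i + Vitamin C at 27 sites covered in all 4 samples. Zfp882 had 2.05%, 3.11%, 2.05% and 0.947% at 11 sites, and Zfp709 had 2.09%, 2.5%, 1.98% and 0.895% at 9. Within Zfp709, whose listed 5′ end is also outside the annotated gene, a site at -431 bp stood apart with 38.5% of 13 reads in WT serum and 25% of 12 reads in KO serum. Its other sites covered in WT serum had 0% to 8.33%, and a site at -689 bp, covered only in WT 2i + Vitamin C, had 33.3% of 12 reads.

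Depth was high at Zfp712 in Chr13.2-cl, where 3 sites held in sum 1390, 1972 and 2177 reads in WT serum, KO serum and WT 2i + Vitamin C, with 1.37%, 1.78% and 1.29%. Zfp458 had 0% of 70 reads in WT serum and 1.33% in WT 2i + Vitamin C, and Zfp493 had 0% of 31 reads in KO 2i + Vitamin C. Zfp874b, like Zfp874a, had an upstream site that was higher in WT serum: it lies at -266 bp, with 15.8% of 19 reads there, 0% of 19 in WT 2i + Vitamin C and 0% of 10 in KO 2i + Vitamin C. In Chr2-cl, Zfp931 had 0% of 50 reads in WT serum, 1.33% in KO serum and 0% of 138 reads in WT 2i + Vitamin C. Gm14399 had 1.6% in KO serum and 3.89% in WT 2i + Vitamin C, Gm14420 had 3.85% and 1.43% in those samples, and Gm14443 had 4.02% in WT 2i + Vitamin C. Zfp94 had 0% of 70 reads in WT 2i + Vitamin C, summed over 7 sites with 10 reads each. None of these means passed 5% except at the Zfp874b site.

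Zfp872 (chr9:21992610-22006567, + strand) is listed as a Muroidea gene, and its listed 5′ end lies well upstream of the start of the mm9 annotation's Zfp872, so its covered sites are outside the annotated gene. At 13 sites covered in all 4 samples its 5′ region had 71% in WT serum, 64.2% in KO serum, 34.9% in WT 2i + Vitamin C and 22.6% in KO 2i + Vitamin C. It was high in serum and lower in 2i + Vitamin C in either genotype, and none of the other 14 genes came near these means of the whole region. In KO 2i + Vitamin C, however, the mean of Zfp872 rests on 4 upstream sites in repeated sequence. Its other 9 sites had 2.15% in that sample, where Zfp273 had 3.96%. The 5′ region of Zfp872 held 72 CpG sites with an observed over expected ratio of 0.518, which is above the median of protein-coding genes, so the methylated 5′ end was not a CpG-poor one.

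The 5′ sites of Zfp872 fell into separate stretches. Far upstream, 4 sites at -758 to -638 bp from the 5′ end had means of 87.5% in WT serum, 99% in KO serum, 72.5% in WT 2i + Vitamin C and 68.8% in KO 2i + Vitamin C, and so stayed above 65% as means in every sample. The 45-base windows of these 4 sites occur 10 to 73 times in mm9 after C-to-T conversion, so they belong to repeated sequence. Around the 5′ end, at -60 to 386 bp, 9 sites covered in all 4 samples had means of 63.7%, 48.7%, 18.2% and 2.15% in the same order. All 9 are among the sites in capitals in the Zfp872 sequences above. They were between 50% and 90.5% in WT serum, between 2.27% and 35.7% in WT 2i + Vitamin C, and between 0% and 9.09% in KO 2i + Vitamin C. With only the sites of unique windows, the 5′ region fell from 62.8% in serum to 15.6% in 2i + Vitamin C at 11 sites in WT cells. In KO cells it fell from 51.2% to 2.4% at 8 such sites.

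**Figure D3:**
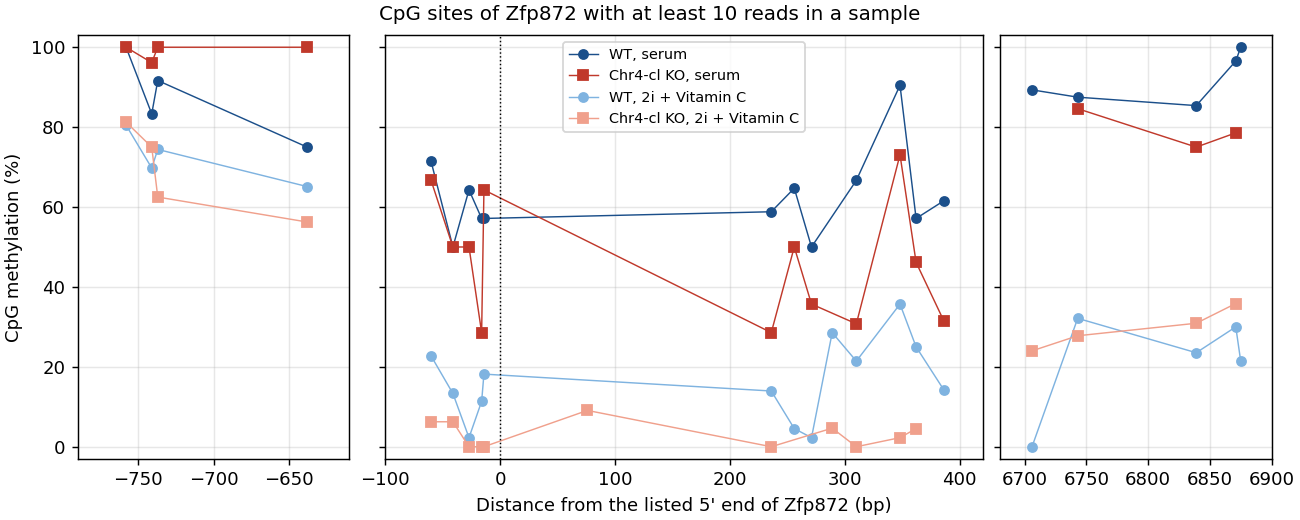
Each marker is a CpG site of Zfp872 with at least 10 reads in that sample, with the distance from the listed 5′ end in bp on the horizontal axis (3 separate ranges) and methylation in percent on the vertical axis. The dotted line is the 5′ end. The upstream sites stay above 56% in every sample, and around the 5′ end the KO 2i + Vitamin C values stay under 10%.

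To ask whether loss of Chr4-cl went with altered methylation at other KRAB-ZFP genes, regions were compared between KO and WT cells. Reads were pooled over the sites covered in both libraries, and a region with at least 3 such sites was called when Fisher's exact test gave a Benjamini-Hochberg p (over all genes) below 0.05 and the mean site difference was at least 20 percentage points. No gene was called in either medium. In serum, 0 of 18 5′ regions and 0 of 6 gene bodies were called, where 1.4% and 3.11% of all tested genes were. In 2i + Vitamin C, 0 of 16 and 0 of 6 were called, against 0.332% and 1.06%. With shares this small, a count of 0 among so few genes is near the background. The median 5′ difference (KO minus WT) was 0.444 percentage points in serum and -0.789 in 2i + Vitamin C, beside 1.1 and -0.902 over all genes.

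The change closest to a call was at Zfp872. In 2i + Vitamin C its 5′ region had 34.5% in WT and 21.4% in KO cells at 14 sites (532 and 332 reads), a difference of -13.1 ± 2.58 points (SE from read counting) with an adjusted p of 4.96e-09 (Fisher's exact test). It was larger around the 5′ end, where KO cells were lower at 10 of 10 sites covered in both, with 2.4% against 19.2%. The 4 repeated upstream sites differed by -3.7 points. The only single CpG site called between genotypes is in this stretch: 0 of 267 sites were called in serum (1.94% of all sites) and 1 of 200 in 2i + Vitamin C (0.45%). At position 21992958 of chromosome 9, 348 bp after the 5′ end, methylation was 35.7% of 28 reads in WT and 2.27% of 44 reads in KO cells in 2i + Vitamin C (adjusted p = 0.0248, Fisher's exact test over all sites of the genome). Thinning the deeper library to equal reads ended this call. In serum the stretch differed the same way, with 62.5% in WT and 46.3% in KO cells, lower in KO at 10 of 12 sites, but the whole 5′ region was not past the threshold (-9.24 ± 3.87 points, adjusted p = 0.481, Fisher's exact test) and its 4 upstream sites were 11.5 points higher in KO cells. With at least 20 reads per site, 3 sites were left and the region was called lower in KO cells in either medium, by -21.4 points in serum and -25.1 in 2i + Vitamin C. The sites of a stretch share reads and are not independent.

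Without the size criterion, 1 of 18 5′ regions (48.8% of all genes) passed the adjusted p in serum and 4 of 16 (32.5%) in 2i + Vitamin C. The one in serum was Zfp709 (3.98% and 4.42%). Those in 2i + Vitamin C were Zfp872, Zfp709 (1.98% and 0.895%), Zfp808 (2.44% and 1.74%) and Zfp273 (0.379% and 3.96%). Among gene bodies, 4 of 6 (53.3% of all genes) passed it in serum and 0 of 6 (34.2%) in 2i + Vitamin C. The 4 in serum were higher in KO cells, by 3.89 points in Zfp661, 5.17 in Zfp46, 5.18 in Zfp94 and 6.92 in Zkscan17, and the median gene body of the annotation was higher by 4.1 points.

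Between the growth media, methylation of most gene bodies differed and that of most 5′ regions did not pass the test. In WT cells, 1 of 19 5′ regions was lower in 2i + Vitamin C than in serum, against 10.9% of all genes, and in KO cells 1 of 15, against 9.46%. In either genotype the gene was Zfp872, by -39 ± 3.25 points in WT (68.7% to 29.7% at 16 sites, adjusted p = 7.95e-23, Fisher's exact test) and by -41.5 ± 3.38 in KO cells (13 sites, adjusted p = 1.26e-34, Fisher's exact test). Of the gene bodies, 4 of 6 were lower in WT cells (69.6% of all genes) and 4 of 5 in KO cells (70.1%), which is near the background. The genes were Zfp661, Zfp872, Zfp94 and Zkscan17 in either genotype. For Zfp94 in WT cells, the mean over sites fell but the pooled reads on which Fisher's test was made went from 8.41% to 13.06%, so its call does not have a test in the same direction, and with pooled reads 3 of 6 were lower. The WT and KO comparisons share no library. Zfp46 (-1.98 points at 20 sites in WT and -18.2 at 6 sites in KO cells) and Gm14418 (-2.8 in WT) were not called. With the gene locations of the mm9 annotation in place of the listed ones, Zfp872 had no covered site and no 5′ region was called in either genotype.

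Zfp661 (chr2:127401269-127410413, - strand) is one of the 4 genes conserved in mammals. Its 5′ region was low, and all covered sites beyond it were over 80% in serum. In the last coding exon, the 7 sites marked in the sequence above had 87.9% in WT serum (80.4% to 92.9%) and 92.9% in KO serum (84.8% to 98.4%). In 2i + Vitamin C, 6 of these sites had means of 29.4% (WT) and 31.9% (KO). Intronic sites at 1648 to 1903 bp had 86.4% in WT serum and 26.2% in WT 2i + Vitamin C, and a pair of sites at 2422 and 2616 bp had 91.5% and 54%. Over the whole gene body the change was -54.6 ± 2.79 points at 10 sites in WT and -63.9 ± 3.85 at 7 sites in KO cells (adjusted p = 9.54e-62 and 2.34e-48, Fisher's exact test).

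Zkscan17 (chr11:59299023-59320142, - strand), a gene of the SCAN domain family, held low and high stretches within 1 gene. Its annotated start lies far upstream of the listed 5′ end, 19651 bp from a covered site at -460 bp, and with annotated locations its gene body was not called. From 284 to 1500 bp after its listed 5′ end, 19 sites covered in all 4 samples had 1.41% in WT serum, 2.1% in KO serum, 2.05% in WT 2i + Vitamin C and 0.12% in KO 2i + Vitamin C. At 3069 to 3560 bp, in coding exons and introns, 6 sites had 87.7% in WT and 93% in KO serum, and their mean in WT 2i + Vitamin C was 54.6%. At 4 of these sites the depth was at least 352 reads in each of those 3 samples. At 18811 to 19258 bp, mostly in the last coding exon, 10 sites had 76% in WT serum, 88.8% in KO serum and 37.5% in WT 2i + Vitamin C, and 6 of them had 25.3% in KO 2i + Vitamin C. The mean of the later stretch was below that of the earlier one in each of those 3 samples, with no test made. Over the gene body, methylation changed between the media by -22.1 ± 1.33 points in WT (26 sites) and -32.7 ± 1.97 in KO cells (12 sites). The site sets differ, so the sizes cannot be compared, and these means mix the low and the high stretches. With sites covered in all 4 samples, or with a 500 bp window, the gene body was not called in WT cells.

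Zfp94 (chr7:25086723-25101685, - strand) also held both. Its 7 intronic sites at 2622 to 3037 bp had 80% in WT serum, 86.6% in KO serum and 41.9% in WT 2i + Vitamin C, and 3 of them had 25% in KO 2i + Vitamin C. Up to 7 sites at 15612 to 15779 bp, beyond its far end, had 3.54%, 6.09% and 4.43% in the first 3 samples, and these lie 178 to 345 bp from the annotated start of Zfp61, the neighbouring gene. Its gene body mean of 44.7% in WT serum and 24.6% in WT 2i + Vitamin C at 13 sites joins the start of another gene to its own intron.

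Zfp46 (chr4:135841984-135849857, + strand), which is on chromosome 4 but not in the deleted cluster, had a gene body with low methylation, as did Gm14418. Its 22 covered sites beyond the 5′ region all lie in coding sequence at 4408 to 5102 bp, 19 of them within the finger array. They had means of 3.86% in WT serum, 9.03% in KO serum, 1.9% in WT 2i + Vitamin C and 1.75% in KO 2i + Vitamin C, where only 6 sites were covered. At those 6 sites, covered in all 4 samples, the means were 7.6%, 19.9%, 1.75% and 1.75%. The array, taken from the first to the last linker of the chain, held 61 CpG sites, the most of the 48 genes. The run of linkers in Zfp661 held 6. So coding exons of finger genes stood at either extreme in serum: under 11% at every site of Zfp46 in WT cells and over 80% at every last-exon site of Zfp661. In KO serum, 4 sites of Zfp46 with 16 reads each had 18.8% to 37.5%, and its sites with at least 352 reads had 1.56% to 7.63%. Of 413 CpG sites in the linker chains of all 48 genes, 22 were covered, 19 of them in Zfp46 and 3 in Zfp661. The chains of the other genes were therefore not analysed here. Fingers outside a linker chain were not counted, and Zkscan17 had no linker, so its last coding exon is not part of this count.

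Zfp872 had covered gene body sites only at 6706 to 6875 bp from its listed 5′ end, outside the annotated gene. They had 91.8% in WT serum at 5 sites, 79.4% in KO serum at 3, 21.4% in WT 2i + Vitamin C at 5 and 29.6% in KO 2i + Vitamin C at 4. The window of one of them occurs 11291 times in mm9, and only 2 of the 5 are unique. KO cells were lower at 3 of 3 shared sites in serum and higher at 3 of 4 in 2i + Vitamin C, and neither difference was past the threshold (adjusted p = 0.161 and 0.58, Fisher's exact test). Gm14418 of Chr2-cl had 4.61%, 2.03%, 2.05% and 1.51% at 1736 to 1874 bp, which is 236 to 374 bp from the annotated start. In 4 other genes, gene body sites were covered in only 1 sample, at 10 to 12 reads each. Zfp599 had 19.1% at 3 sites and Zfp808 had 54.5% at 2 repeated sites in KO 2i + Vitamin C. In WT 2i + Vitamin C, Zfp458 had 33.3% at 1 repeated site and Zfp953 had 0% at 1 site.

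**Figure D4:**
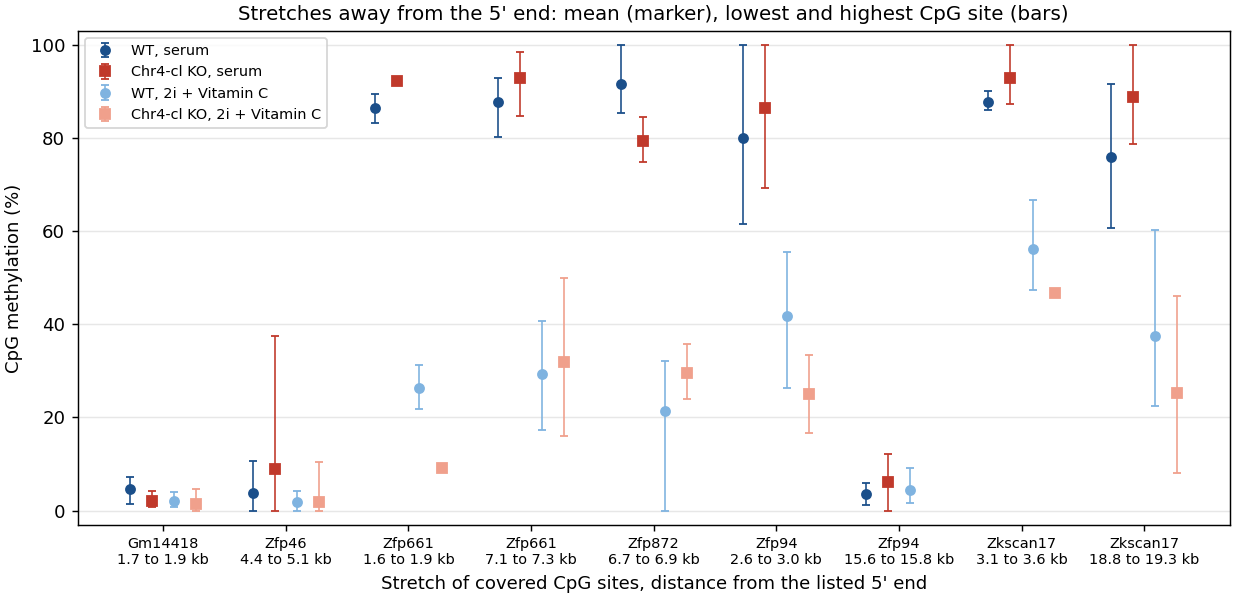
Each group of markers is a stretch of covered CpG sites more than 1 kb from the listed 5′ end, with neighbouring sites at most 500 bp apart and at least 3 sites. Markers give the mean methylation in percent over the sites covered in that sample and bars reach from the lowest to the highest site, so samples may differ in the sites they hold. Stretches of Zfp661, Zfp872, Zfp94 (2.6 to 3 kb) and Zkscan17 have means over 75% in serum, and those of Gm14418, Zfp46 and Zfp94 (15.6 to 15.8 kb) have means under 10% in all samples shown.

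Taken by distance from the 5′ end, the sites covered in all 4 samples rose from low to high away from the start. The 106 sites from 0 to 500 bp, of 14 genes, had means of 3.83% in WT serum, 3.75% in KO serum, 2.67% in WT 2i + Vitamin C and 0.933% in KO 2i + Vitamin C. The 15 sites from 3 to 10 kb, of 3 genes, had 55.8%, 60.9%, 18.2% and 19.8%. The 7 sites from 1000 to 500 bp before the 5′ end had 50.8%, 58.6%, 41.4% and 39.3%, but they come from 2 genes and 4 of them are the repeated sites of Zfp872. Among single sites, 12 of 203 5′ sites were lower in 2i + Vitamin C in WT cells (5.91%) and 32 of 77 in gene bodies (41.6%), against 31.8% of all sites. In KO cells the counts were 8 of 156 (5.13%) and 21 of 33 (63.6%), against 28.6%. These shares of all sites mix every position in the genome, so they do not match either the 5′ or the gene body sites. Of the 12 and 8 5′ sites, all but 1 site of Zfp709 were in Zfp872. The site of Zfp709, 431 bp before its 5′ end, fell from 38.5% of 13 reads to 1.92% of 52 reads in WT cells. A single site was higher (0.144% of all sites), in AW146154, from 0% of 30 reads to 22.6% of 31 reads, and it was at 0% in KO cells in 2i + Vitamin C.

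**Figure D5:**
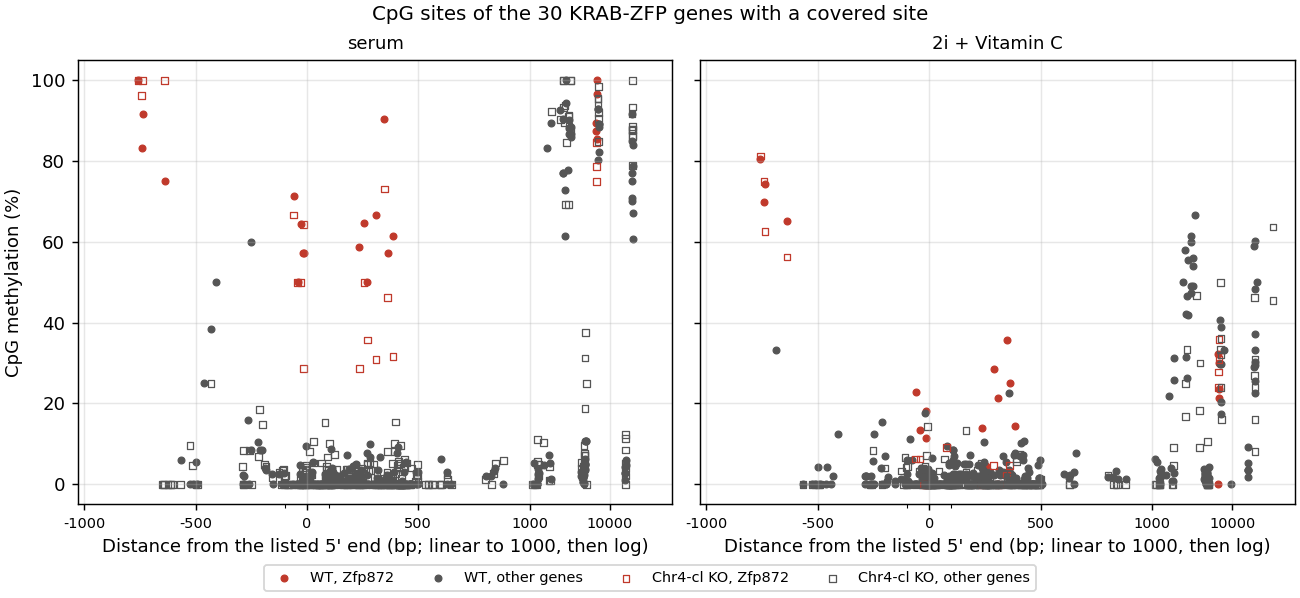
Every CpG site with at least 10 reads in the plotted sample is shown by its distance from the listed 5′ end (bp, linear to 1000 and logarithmic beyond) and its methylation in percent, for serum on the left and 2i + Vitamin C on the right. Filled circles are WT, open squares Chr4-cl KO, and red marks Zfp872. Up to 500 bp after the 5′ end, sites of genes other than Zfp872 lie under 25%, and beyond 1000 bp sites lie both near 0 and up to 100% in serum.

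Other KRAB-ZFP genes give a comparison, with no test. Their 1009 5′ sites of 108 genes had means of 1.97% in WT serum, 2.98% in KO serum, 2.17% in WT 2i + Vitamin C and 1.32% in KO 2i + Vitamin C. At the 150 5′ sites of 16 of the 48 genes they were 7.48%, 7.65%, 4.72% and 2.92%. Of these sites 13 belong to Zfp872, whose means were 71%, 64.2%, 34.9% and 22.6%. The medians over genes with at least 3 such sites were alike. They were 1.56%, 2.28%, 1.98% and 1.04%, against 1.36%, 2%, 2.06% and 1.13% in other KRAB-ZFP genes. Over the 203 5′ sites covered in both WT samples, the mean change between the media was -3.41 points, and -0.357 without Zfp872. In the rest of the gene, the 33 sites of 6 genes had 48.6%, 55.9%, 19% and 16.1%, against 43.7%, 47.8%, 17.9% and 15.2% at 489 sites of other KRAB-ZFP genes. The Chr4-cl genes themselves, which can be read only in WT cells, had 53.9% in serum and 38.1% in 2i + Vitamin C at 198 sites in the rest of 5 genes, where 77 sites of the 48 genes had 43.1% and 19.9%. Only 8 of their 5′ sites were covered in both WT samples.

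A list of 26 genes of KAP1 repression and DNA methylation was read as well. It holds Trim28, Setdb1, the HP1 genes, DNA methyltransferases, Tet1, Tet2, other chromatin factors, and the KRAB-ZFP genes Zfp57 and Zfp809. These genes were under 10% at tested 5′ regions except for Atf7ip and Dnmt3l. Dnmt3l, a cofactor of DNA methyltransferases, had 16.1% in serum and 29% in 2i + Vitamin C in WT cells at 3 sites, and was not called. Of 21 tested for KO against WT in serum, 1 was called, against 1.4% of all genes. It was Atf7ip, a partner of SETDB1, which was higher in KO cells (28.3% and 52.5%). Of 20 tested in 2i + Vitamin C 0 were called, against 0.332% of all genes. Between the media Atf7ip was the only call of 22 in WT (29.7% to 3.27%) and of 19 in KO cells (48.5% to 1.84%). Over all genes, 10.9% and 9.46% of 5′ regions were lower in these comparisons. Trim28 stayed low, with 0.951% in WT serum, 1.76% in KO serum, 1.97% in WT 2i + Vitamin C and 0.901% in KO 2i + Vitamin C. Gene bodies of the list were lower in 2i + Vitamin C in 9 of 15 genes in WT and 8 of 13 in KO cells. These shares of 60% and 61.5% were not above the 69.6% and 70.1% of all genes.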

How the data were processed

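RRBS-seq was made from MspI-digested DNA of WT and Chr4-cl KO ES cells. Bismark (alignment to mm9, after Trim Galore) was used by the authors, who merged CpG dyads and deposited for each CpG site the read count, the methylated read count and the methylated fraction. Replicates were not pooled. Repeated positions (332 lines of WT serum, 830 of KO 2i + Vitamin C) were not used. The data of these samples had 3707217 and 5424640 lines, against 2689020 in KO serum and 2123112 in WT 2i + Vitamin C. Each looked like separate lists of sites joined end to end, and every comparison includes such a sample. Columns of counts were used. The genome and annotation used here (NCBIM37, the same build as mm9) gave 5′ ends by strand of the same symbol for 47 genes and by overlap for 1. Sites with at least 10 reads were used, as in the study. Regions and sites were tested with Fisher's exact test (two-sided, Benjamini-Hochberg, Python 3.11.15, numba 0.67.0) over all genes or sites, with code tested on simulated data. Tables of 45-base windows were counted after C-to-T conversion on both strands, with no mismatch. Named genes were up to 10 called genes per comparison and position, the 3 highest and 3 lowest 5′ means in WT serum, the 3 highest in WT 2i + Vitamin C and up to 10 called sites per genotype comparison. Others named were chosen after their values were seen, as were the stretches. The genes and lists were chosen with earlier results of these data known. A protein-based finger count was not made, because protein sequences were not used here.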

Additional observations from a re-analysis of the deposited data

Results flagged for a closer look

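At Zkscan17, outside the 5′ region, methylation in Chr4-cl KO minus WT cells had opposite signs in the 2 media as a mean over sites, each larger than its counting interval: 6.92 percentage points in serum (26 sites) and -6.25 in 2i + Vitamin C (12 sites). The difference between the media was not tested, and with 1 library per condition it has no replicate check. The serum value passed the adjusted p (1.17e-40, Fisher's exact test) but not the size criterion, and the other did not pass it (adjusted p = 0.487, Fisher's exact test). Fisher's test uses pooled reads, and by these the signs were the same: 12.2 points in serum and 2.37 in 2i + Vitamin C. The gene bodies of the annotation had median differences of 4.1 and -1.82 points, so they had the same signs.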

How the results depend on the processing

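No paired analysis was possible because each condition had 1 library. For the same reason no replicate was left out. Depth sets a limit, since 18 of the 48 genes had no covered site. None of the 4 comparisons reversed a call, and values not named here moved by less than 1.5 times (counts) or by less than their counting error (mean differences). The cause was not tested for any value that moved.

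Counts of called genes changed in these cases. KO against WT in serum went from 0 to 1 of the 5′ regions at a minimum of 20 reads (Zfp872), and from 0 to 1 of the gene bodies at 5 reads (Zfp872, -21.3 points) or with sites covered in all 4 samples (Zfp94, 24.7 points). In 2i + Vitamin C the 5′ count went from 0 to 1 at 20 reads or with a 10-point criterion (Zfp872). Between the media, the 5′ count in WT cells went from 1 to 2 at 5 reads or with 1 site (adding Zfp874a), and in either genotype to 0 with annotated locations or without Zfp872. The gene body count went from 4 to 2 at 20 reads or with annotated locations in either genotype, and in WT cells also to 2 with unique sites and to 3 with pooled reads, by which Zfp94 was higher (4.65 points).

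Mean differences over sites, in percentage points, moved as follows. KO minus WT in serum at 5′ regions was -0.154, and 0.792 with annotated locations or 0.672 without Zfp872. In gene bodies it was 4.67, and 7.28 with sites covered in all 4 samples or 6.41 with pooled reads. In 2i + Vitamin C it was -1.89 at 5′ regions, and -0.631 with annotated locations or -0.851 without Zfp872, while the gene body value of -1.97 became 6.86 with pooled reads. Between the media in WT cells, the 5′ value of -3.41 became -0.488 at 20 reads, 0.0775 with pooled reads, -0.0772 with annotated locations and -0.357 without Zfp872. The gene body value of -23.2 became -17.0 at 20 reads, -29.6 with sites covered in all 4 samples, -19.9 with a 500 bp window, -26.7 with 2 kb, -17.4 with pooled reads, -12.9 with annotated locations and -19.9 without Zfp872. In KO cells the 5′ value of -4.59 became -2.66 at 20 reads, -1.49 with pooled reads, -0.997 with annotated locations and -1.23 without Zfp872. The gene body value of -39.7 became -35.8 at 5 reads, -52.8 at 20 reads, -31.1 with a 500 bp window, -50.1 with 2 kb, -30.0 with pooled reads and -16.8 with annotated locations.

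Counts of called single sites went from 0 to 1 in serum at 5 reads, from 1 to 0 in 2i + Vitamin C after thinning to the smaller depth, from 45 to 26 between the media in WT cells at 20 reads, and from 29 to 15 in KO cells at 20 reads. The exclusion of repeated windows and of Zfp872 was chosen after seeing the data.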
